A study of Mus musculus with 10 samples.

Results

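The genes described are 10 imprinted genes of mouse, Igf2r, Airn, Grb10, Plagl1, Mest, Peg3, Usp29, Peg10, Sgce and Nnat. They were chosen by name, as imprinted genes of 7 loci outside the Snrpn, Igf2-Kcnq1ot1 and Dlk1 domains, and the rule uses no measured value. All 10 are among the 35542 genes of the count table and all 10 are among the 15452 autosomal genes that were tested. RNA was sequenced from the frontonasal prominence (FNP), the facial tissue that gives rise to the forehead and nose, of E10.5 embryos. There were 4 MD1 libraries, from embryos homozygous for MommeD1, a loss-of-function allele of Smchd1 that came from an ENU screen, and 6 WT libraries from embryos with no mutant Smchd1 allele. Both groups were on the inbred FVB/NJ background. By their labels the MD1 libraries are 2 males and 2 females and the WT libraries 3 males and 3 females. The comparison asks whether imprinted genes are expressed differently in the FNP when SMCHD1 is lost.

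Imprinted genes are transcribed from only one parental copy, because a control region carries DNA methylation set in the egg or the sperm and kept through development. SMCHD1 is a chromatin protein that keeps the inactive X chromosome and several autosomal clusters silent, some imprinted clusters among them. Many imprinted genes act on growth: those expressed from the paternal copy tend to promote it and those from the maternal copy to restrain it. Igf2r and, in most tissues, Grb10 are expressed from the maternal copy, and the other 8 genes from the paternal copy. An inbred embryo carries the same sequence on both copies, so each value below is the sum of the 2 parental copies and says nothing of which copy was read.

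Sequencing gave between 4195119 and 20661292 counts per library in MD1 and between 9225452 and 24125084 in WT. Smchd1 itself averaged 78.6 ± 20.8 counts per 1000000 of the TMM-scaled library (CPM) in MD1 and 246 ± 14 CPM in WT (SD, n = 4 and 6). That is a log2 fold change of -1.65 (SE 0.15, edgeR adjusted p = 0.000746). The library labelled MD1 female replicate 1 held Y-linked reads, with Ddx3y at 88.2 CPM, against 78.2 to 91.4 CPM in WT males, so its sex label goes against its reads. Its Xist level, 204 CPM, was that of neither sex, at 0.596 to 2.08 CPM in WT males and 2594 to 2695 CPM in WT females. MD1 replicate 4, labelled female, had 0 Ddx3y reads and Xist at 6724 CPM, above every WT female. MD1 replicates 2 and 3, labelled male, had Ddx3y at 96.1 and 92.1 CPM. MD1 replicate 4 was thus the only MD1 library with no Ddx3y reads, and within MD1 female sex and that library cannot be told apart. The paper reports that female embryos null for Smchd1 die because X inactivation fails. MD1 replicate 4 stood apart from the other 9 libraries on the first principal component, which carried 38.2% of the variance (89.0, against -35.7 to 8.5). MD1 replicate 3, the shallowest library, stood apart on the second, which carried 25.1% (-69.5, against -21.2 to 22.5 in the others). All 11 markers of frontonasal mesenchyme and neural crest reached 1 CPM, and their summed level was 1089 to 1639 CPM in MD1 and 1401 to 1934 CPM in WT, the lowest value being that of MD1 replicate 4. The summed level of 7 erythroid markers was 19702 CPM in MD1 replicate 4 and 2565 to 4143 CPM in the other MD1 libraries, against 2913 to 4183 CPM in WT. That of 11 hypoxia-response genes was 10774 CPM in MD1 replicate 4 and 1403 to 2526 CPM in the other MD1 libraries, against 1086 to 2436 CPM in WT. The summed level of 7 yolk sac and liver markers was 335 CPM in MD1 replicate 1, 87.6 CPM in MD1 replicate 4 and at most 1.21 CPM in the other MD1 libraries, against 0.87 to 27.7 CPM in WT.

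None of the 10 imprinted genes was called different between MD1 and WT by edgeR, with adjusted p-values from 0.511 to 0.959. The count of calls was also 0 of 10 without MD1 replicate 1, without MD1 replicate 4, and without both. Over all 10 libraries the fit called 12 of 15452 autosomal genes, which is 0.0777% of them (0.0712% higher and 0.00647% lower in MD1), a rate at which fewer than 1 of 10 genes would be called. At an unadjusted edgeR p under 0.05 there were also 0 of 10, where 9.79% of all tested genes were. For 0 of 10 did the MD1 and WT libraries fall into separate ranges, where 2.05% of all tested genes did. Log2 fold changes of MD1 over WT were positive for 5 genes and negative for 5, with a median of 0.0364, against 0.0029 over all tested genes. All 10 of the 95% confidence intervals included 0, and all 10 lay wholly between -1 and 1. The widest of them, that of Usp29, still leaves out a doubling or a halving. The fit takes 1 spread per gene for both groups, so the intervals do not reflect the spread of MD1 alone. For Igf2r the SD was 106 CPM in MD1 and 9 CPM in WT, and for Nnat 20 CPM in MD1 and 78 CPM in WT. In bulk tissue a change in the number of cells that express a gene and a change in its RNA per cell cannot be told apart.

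**Figure D1:**
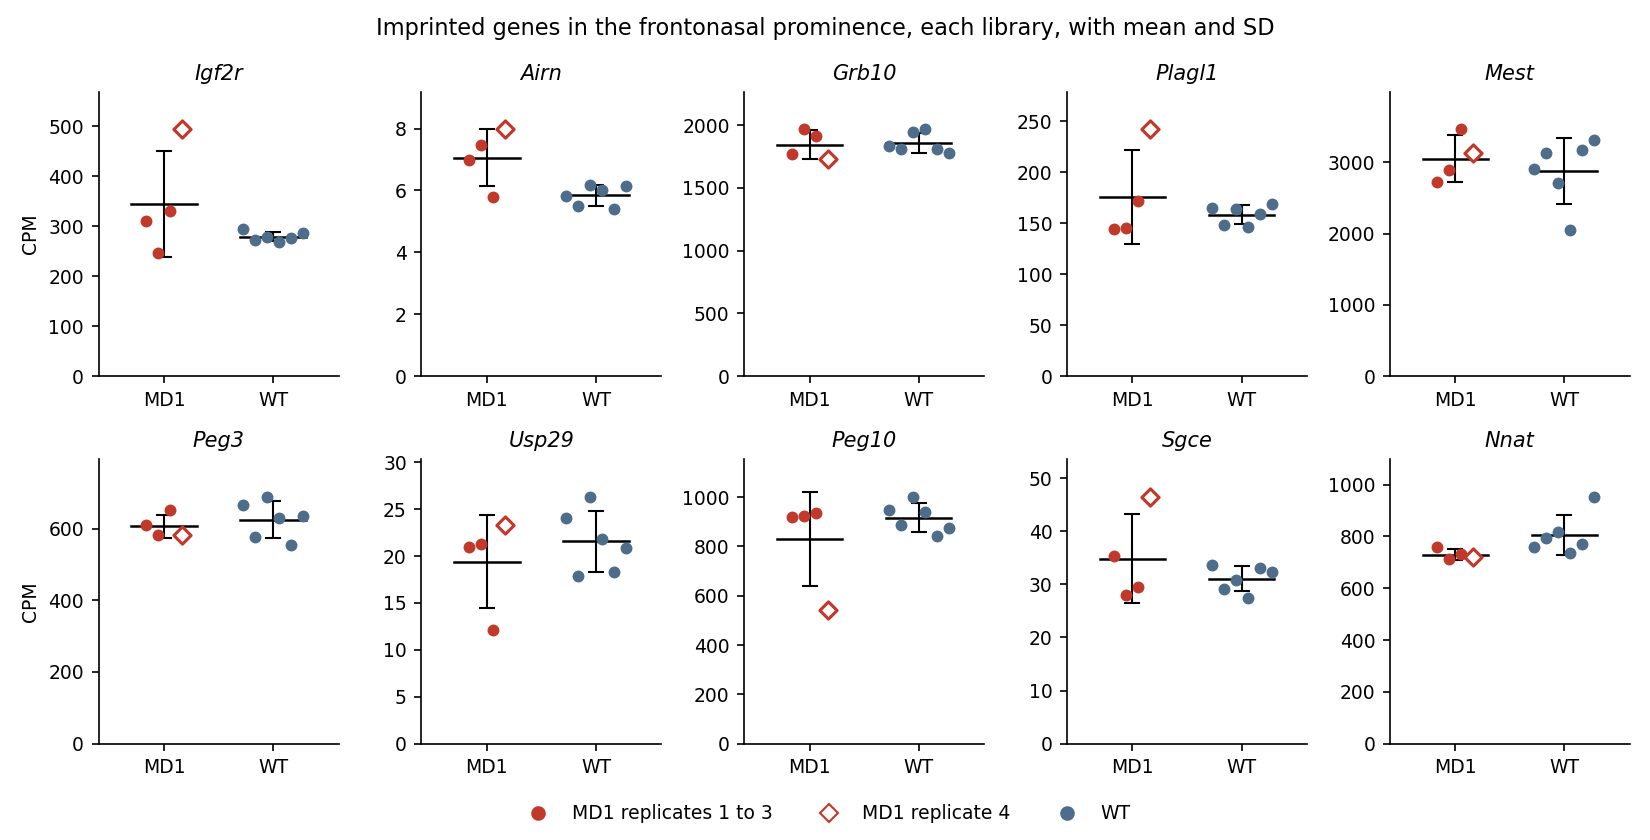
Level of each gene in CPM (vertical axis, from 0) in 4 MD1 and 6 WT libraries, with 1 point per library and the group mean ± SD in black. The open diamond is MD1 replicate 4, which is the highest of the 10 libraries for Igf2r, Airn, Plagl1 and Sgce and the lowest for Grb10 and Peg10, and the ranges of MD1 and WT overlap in all 10 panels.

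Per transcript length, the genes spanned a wide range of levels and kept the same order in both groups. In the deposited values of reads per kilobase scaled to library size (RPKM), Mest averaged 662 ± 80 in MD1 and 658 ± 105 in WT. Nnat followed with 343 ± 35 RPKM in MD1 and 398 ± 40 in WT, and Grb10 with 174 ± 23 in MD1 and 185 ± 9 in WT. These 3 genes stood above 99.4% or more of all tested genes in both groups. Peg10 averaged 108 ± 32 RPKM in MD1 and 124 ± 9 in WT, Peg3 39.1 ± 4.6 in MD1 and 42.3 ± 3.6 in WT, and Igf2r 31.2 ± 6.5 in MD1 and 27.1 ± 0.8 in WT. Plagl1 lay at 18.9 ± 3.0 RPKM in MD1 and 18.3 ± 1.0 in WT. The lowest levels were those of Sgce (2.78 ± 0.44 RPKM in MD1 and 2.64 ± 0.19 in WT), Airn (1.68 ± 0.19 in MD1 and 1.465 ± 0.092 in WT) and Usp29 (0.91 ± 0.22 in MD1 and 1.08 ± 0.17 in WT). Neighbours in this order had separate ranges with 2 exceptions: Peg3 and Igf2r overlapped in MD1, and Mest and Nnat overlapped in WT.

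**Figure D2:**
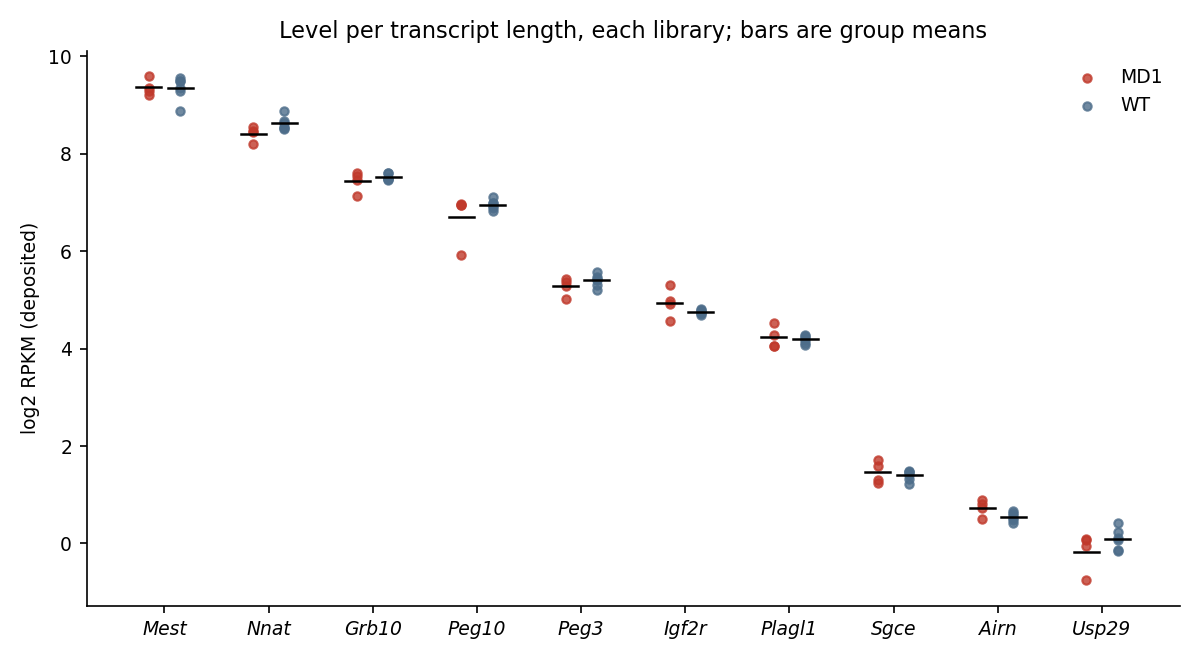
Deposited log2 RPKM (vertical axis) of each gene, ordered by its WT mean, with 1 point per library, MD1 left of WT, and bars at the group means. The order from Mest to Usp29 is the same in both groups, and the ranges of MD1 and WT overlap at every gene.

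The promoter sequences were not used in choosing the genes. RefSeq (GRCm38.p6) gave 11 windows of 300 bases, from 250 before to 50 after a start, for 8 of the genes. ZFP57, a zinc finger protein that holds methylation at imprinted control regions, recognises the hexamer TGCCGC when it is methylated. The hexamer was searched on both strands, so that it can read TGCCGC or GCGGCA. It lay in the windows of 4 of the 8 genes, Nnat, Mest, Plagl1 and Grb10, and not in those of the other 4, Igf2r, Airn, Peg3 and Usp29. By window that is 5 of the 11, against 11.6% of 32851 RefSeq windows of the same length, and 2 of the 5 are Mest windows that overlap. A match is a run of letters and not a binding site, and binding was not measured here. The windows are promoters, and which of them lie in a methylated control region was not examined. A window without the hexamer therefore says nothing of the control region of its gene. The windows that hold it are printed with the hexamer in capitals, and of the 2 Mest windows, which lie 3 bases apart, the first.
Nnat, chr2:157559828-157560127, plus strand: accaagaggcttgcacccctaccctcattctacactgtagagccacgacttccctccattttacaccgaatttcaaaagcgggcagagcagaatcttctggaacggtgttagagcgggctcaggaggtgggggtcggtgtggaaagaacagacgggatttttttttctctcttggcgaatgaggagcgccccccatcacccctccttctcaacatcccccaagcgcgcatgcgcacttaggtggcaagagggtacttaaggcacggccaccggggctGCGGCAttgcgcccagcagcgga
Mest, chr6:30737800-30738099, plus strand: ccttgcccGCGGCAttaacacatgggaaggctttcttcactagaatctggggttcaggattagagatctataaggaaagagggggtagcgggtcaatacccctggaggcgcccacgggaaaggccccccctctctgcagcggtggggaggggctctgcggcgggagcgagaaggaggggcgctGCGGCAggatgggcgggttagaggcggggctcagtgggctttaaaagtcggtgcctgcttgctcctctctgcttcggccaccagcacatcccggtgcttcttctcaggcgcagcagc
Plagl1, chr10:13090582-13090881, plus strand: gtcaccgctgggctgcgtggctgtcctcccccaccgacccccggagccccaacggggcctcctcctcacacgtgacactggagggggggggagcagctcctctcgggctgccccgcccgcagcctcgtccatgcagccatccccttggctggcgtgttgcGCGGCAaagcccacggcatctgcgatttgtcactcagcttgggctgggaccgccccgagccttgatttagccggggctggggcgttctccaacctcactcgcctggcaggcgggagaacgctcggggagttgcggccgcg
Grb10, chr11:12037371-12037670, minus strand: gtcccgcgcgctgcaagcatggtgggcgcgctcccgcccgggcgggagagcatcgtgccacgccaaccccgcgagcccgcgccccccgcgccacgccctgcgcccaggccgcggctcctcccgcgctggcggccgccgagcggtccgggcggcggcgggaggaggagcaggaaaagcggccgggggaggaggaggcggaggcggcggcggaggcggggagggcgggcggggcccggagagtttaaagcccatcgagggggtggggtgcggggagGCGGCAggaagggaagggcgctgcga
The hexamer begins at base 28 of the Nnat transcript and at base 25 of that of Grb10. It begins 90 bases before the Plagl1 start, and both 242 and 67 bases before that of Mest. These windows held 17 CpG pairs for Nnat and for Mest, 26 for Plagl1 and 45 for Grb10, against a median of 7 over all windows. Among genes without the hexamer, the windows held 34 for Igf2r, 17 for Usp29, 13 for Peg3 and 3 for Airn. The hexamer itself holds a CpG, so 11.6% is not the share among windows equally rich in CpG. The 4 genes with the hexamer had log2 fold changes of both signs: -0.14 (Nnat), 0.08 (Mest), 0.15 (Plagl1) and -0.01 (Grb10).

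Igf2r and Airn share a locus on chromosome 17. Igf2r (ENSMUSG00000023830, 12682406 to 12769664, minus strand, GRCm38) encodes the receptor that takes up IGF2 and mannose-6-phosphate tagged enzymes and sends them to the lysosome. Airn (ENSMUSG00000078247, 12741311 to 12860136, plus strand) is a long noncoding RNA that starts in intron 2 of Igf2r, runs antisense to it and silences the paternal Igf2r copy. The genes overlap over 28354 bases but share 0 exon bases. Igf2r stood at 309.9, 246, 329.9 and 495 CPM in MD1 replicates 1 to 4, against 269 to 294 CPM in WT with a median of 277. In MD1, 3 libraries lay above every WT library and 1 below, and MD1 replicate 4 was far above the others. The mean was 345 ± 106 CPM in MD1 and 279 ± 9 CPM in WT (SD, n = 4 and 6), a far wider spread between libraries in MD1. The log2 fold change was 0.31 (SE 0.15, 95% interval -0.01 to 0.63, edgeR adjusted p = 0.511). Without MD1 replicate 4 it was 0.08 (edgeR adjusted p = 0.911), and without MD1 replicate 2, the one MD1 library below WT, it was 0.44 (edgeR adjusted p = 0.256).

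Airn had few reads, 24 to 147 reads per library in MD1 and 54 to 152 in WT. It stood at 6.99, 7.48, 5.80 and 7.98 CPM in MD1 replicates 1 to 4, against 5.39 to 6.19 CPM in WT with a median of 5.91. The 3 deeper MD1 libraries lay above every WT library and the shallowest lay within WT. In that library, MD1 replicate 3, the 24 reads allow 3.72 to 8.63 CPM by an exact 95% Poisson interval, which covers counting error only and spans the whole WT range. The fitted log2 fold change, 0.29, had an SE of 0.14 (95% interval -0.02 to 0.59, edgeR adjusted p = 0.515). It was 0.23 without MD1 replicate 4 and 0.36 without MD1 replicate 3 (edgeR adjusted p = 0.866 and 0.265). The kit does not mark strand, so reads of unspliced Igf2r RNA that fall on Airn exons cannot be told apart from Airn.

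Within a library, the ratio of 2 genes does not depend on how the library was scaled. The log2 ratio of Airn over Igf2r counts was -5.47, -5.03, -5.80 and -5.95 in MD1 replicates 1 to 4, against -5.67 to -5.48 in WT. The 4 MD1 libraries lay on both sides of the WT range, and their mean differed from that of WT by 0.012 (exact permutation test over 210 assignments, two-sided p = 0.924, adjusted p over 5 ratios = 0.929). The SD of the ratio was 0.41 in MD1 and 0.09 in WT.

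Grb10 (ENSMUSG00000020176, chromosome 11, 11930508 to 12038683, minus strand) encodes an adaptor that binds the insulin and IGF1 receptors and restrains their signal. It stood at 1773, 1968, 1909.9 and 1727 CPM in MD1 replicates 1 to 4, against 1778 to 1969 CPM in WT with a median of 1823. The mean was 1844 ± 113 CPM in MD1 and 1858 ± 79 CPM in WT (SD, n = 4 and 6). Its log2 fold change of -0.01 (SE 0.07) had the narrowest 95% interval of the 10, from -0.15 to 0.13 (edgeR adjusted p = 0.959).

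Among the genes of the paternal copy, Plagl1 (ENSMUSG00000019817, chromosome 10, 13060504 to 13131694, plus strand) encodes a zinc finger transcription factor that activates other imprinted genes. It stood at 144, 145, 172 and 242 CPM in MD1 replicates 1 to 4, against 147 to 168 CPM in WT with a median of 161. The MD1 libraries fell on both sides of WT, 2 of them below every WT library and 2 above. Plagl1 had a log2 fold change of 0.15 (SE 0.13, 95% interval -0.14 to 0.44, edgeR adjusted p = 0.670), and it was -0.05 without MD1 replicate 4 (edgeR adjusted p = 0.946).

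Mest (ENSMUSG00000051855, chromosome 6, 30723547 to 30748465, plus strand) encodes an enzyme-like protein of the alpha/beta hydrolase fold and is abundant in embryonic mesoderm. It stood at 2718, 2886, 3464 and 3133 CPM in MD1 replicates 1 to 4, against 2051 to 3305 CPM in WT with a median of 3019. MD1 replicate 3 was the highest and WT replicate 4 the lowest library. On average MD1 differed from WT by 0.08 on the log2 scale (SE 0.12, 95% interval -0.19 to 0.35, edgeR adjusted p = 0.805). That difference was 0.0034 without WT replicate 4 and 0.02 without MD1 replicate 3. The 3′ end of Mest overlaps that of Copg2, a coat protein gene on the other strand, over 912 bases of exon, or 23.1% of the exon bases of Mest and 17.8% of those of Copg2. Their log2 ratio was 1.198, 1.220, 1.344 and 1.218 in MD1 replicates 1 to 4, against 1.28 to 1.42 in WT, with 3 MD1 libraries below every WT library. The difference of the means was -0.097 (exact permutation test, p = 0.0381), and it did not pass the threshold after adjustment over 5 ratios (adjusted p = 0.191). Reads in the shared bases cannot be assigned to one of the 2 genes from these counts.

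Peg3 and Usp29 start back to back on chromosome 7. Peg3 (ENSMUSG00000002265, 6703892 to 6730431, minus strand) encodes a large zinc finger protein with roles in fetal growth and maternal behaviour, and Usp29 (ENSMUSG00000051527, 6730578 to 6967219, plus strand) a ubiquitin-specific peptidase. Only 146 bases separate the annotated starts, and the RefSeq windows of the 2 genes share 263 bases. The Usp29 window is shown because it holds both starts, with the 146 bases between them in capitals. Transcription of Peg3 leaves to the left of the capitals and that of Usp29 to the right.
Usp29 and Peg3, chr7:6730333-6730632, plus strand: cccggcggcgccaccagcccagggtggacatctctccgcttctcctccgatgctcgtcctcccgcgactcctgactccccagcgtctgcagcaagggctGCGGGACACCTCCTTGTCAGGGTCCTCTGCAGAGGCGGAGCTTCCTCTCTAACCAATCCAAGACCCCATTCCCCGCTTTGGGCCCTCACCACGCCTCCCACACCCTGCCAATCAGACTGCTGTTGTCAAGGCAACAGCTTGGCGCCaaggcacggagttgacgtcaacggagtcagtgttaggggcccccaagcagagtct
Peg3 stood at 610.4, 583, 650.3 and 583 CPM in MD1 replicates 1 to 4, against 554 to 689 CPM in WT with a median of 632. All 4 MD1 libraries lay within the WT range, which held for no other of the 10 genes. For Peg3 the log2 fold change was -0.04 (SE 0.08, 95% interval -0.21 to 0.12, edgeR adjusted p = 0.837).

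Usp29 stood at 20.9, 21.3, 12.1 and 23.3 CPM in MD1 replicates 1 to 4, against 17.8 to 26.3 CPM in WT with a median of 21.4. Only MD1 replicate 3 lay outside the WT range. Its 50 reads of Usp29 allow 8.97 to 15.9 CPM by an exact 95% Poisson interval, which covers counting error only. Over all libraries the log2 fold change was -0.13 (SE 0.17, 95% interval -0.51 to 0.25, edgeR adjusted p = 0.779), and 0.02 without MD1 replicate 3 (edgeR adjusted p = 0.949). The log2 ratio of Usp29 over Peg3 was -4.86, -4.77, -5.74 and -4.64 in MD1 replicates 1 to 4, against -5.01 to -4.71 in WT. The difference of the means was -0.139 (exact permutation test, p = 0.705, adjusted p over 5 ratios = 0.929), and it was 0.11 without MD1 replicate 3. Of the exon bases of Usp29, 14.3% are also exon of Zim3, an antisense gene with 182 reads over all 10 libraries.

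Peg10 and Sgce form the second back-to-back pair, on chromosome 6, with 98 bases between their starts. Peg10 (ENSMUSG00000092035, 4747306 to 4760517, plus strand) derives from a retrotransposon and is needed to form the placenta, and Sgce (ENSMUSG00000004631, 4674350 to 4747207, minus strand) encodes epsilon-sarcoglycan, a membrane protein. Peg10 stood at 918, 925, 935 and 542 CPM in MD1 replicates 1 to 4, against 843 to 1002 CPM in WT with a median of 914. MD1 replicates 1 to 3 lay close together inside the WT range, and MD1 replicate 4 lay below every other library. With all libraries the log2 fold change was -0.14 (SE 0.14, 95% interval -0.44 to 0.15, edgeR adjusted p = 0.693), and it was 0.02 without MD1 replicate 4 (edgeR adjusted p = 0.981).

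Sgce had its highest level in that same library. It stood at 35.3, 28.0, 29.5 and 46.5 CPM in MD1 replicates 1 to 4, against 27.5 to 33.7 CPM in WT with a median of 31.7. Its log2 fold change was 0.17 (SE 0.14, 95% interval -0.12 to 0.47, edgeR adjusted p = 0.637), and 0.01 without MD1 replicate 4 (edgeR adjusted p = 0.989). The log2 ratio of Peg10 over Sgce was therefore 3.54 in MD1 replicate 4 and 4.70, 5.04 and 4.98 in MD1 replicates 1 to 3, against 4.67 to 5.09 in WT. On the linear scale there were 11.6 Peg10 reads per Sgce read in MD1 replicate 4, against 25.5 to 34.1 in WT. The difference of the means was -0.314 (exact permutation test, p = 0.343, adjusted p over 5 ratios = 0.857), and it was 0.03 without MD1 replicate 4. Beside its high erythroid and hypoxia-response levels, MD1 replicate 4 had the highest summed level of 7 endothelial markers (615 CPM, against 332 to 428 CPM in WT). The same held for 7 forebrain and eye markers (534 CPM, against 250.95 to 454.19 CPM in WT). The 9 markers of nasal placode and surface ectoderm were highest there too (476 CPM, against 344 to 447 CPM in WT). So were 6 trophoblast markers, of which only 2 reached 1 CPM. Their sum was 7.15 CPM in MD1 replicate 4 and 3.09, 0.1 and 1.45 CPM in MD1 replicates 1 to 3, against at most 0.71 CPM in WT. The 7 markers of skeletal muscle and heart, of which 1 reached 1 CPM, summed to 4.11 CPM in MD1 replicate 4, against at most 1.61 CPM in WT. MD1 replicate 4 had the lowest level of 6 neuron markers (204 CPM, against 256 to 422 CPM in WT). The part of these marker levels in the values of Igf2r, Plagl1, Peg10 and Sgce was not tested.

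**Figure D3:**
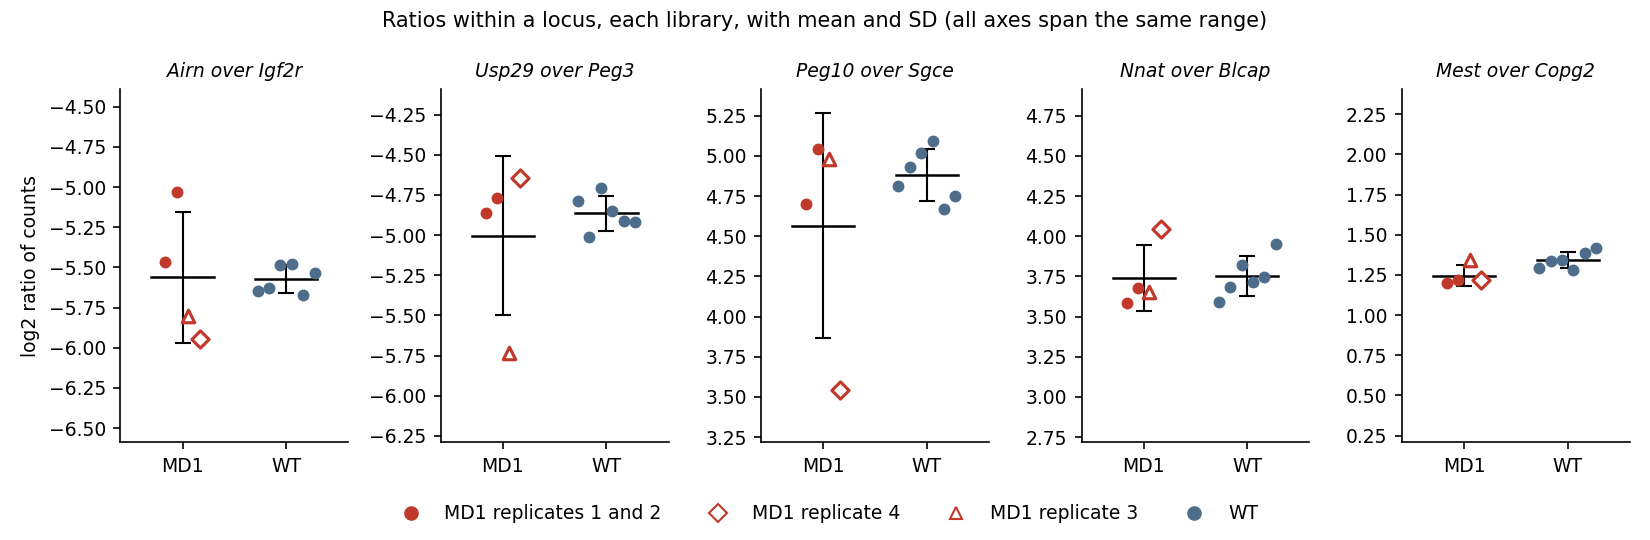
Log2 ratio of counts (vertical axis) of 5 pairs of genes that share a locus, with 1 point per library, MD1 left of WT, and the group mean ± SD in black; every axis spans the same length. MD1 replicate 4 (diamond) lies at 3.54 for Peg10 over Sgce and MD1 replicate 3 (triangle) at -5.74 for Usp29 over Peg3, both outside the range of the other libraries.

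Nnat (ENSMUSG00000067786, chromosome 2, 157560078 to 157562522, plus strand) encodes neuronatin, a small membrane protein of the endoplasmic reticulum, abundant in developing brain. The whole gene lies within the span of Blcap, on the other strand, with 0 exon bases shared. It stood at 757, 711, 732 and 720.0 CPM in MD1 replicates 1 to 4, against 738 to 954 CPM in WT with a median of 782. In MD1, 3 libraries lay below every WT library, and MD1 replicate 4 was among them but not apart from the rest. The mean was 730.1 ± 20.1 CPM in MD1 and 805 ± 78 CPM in WT (SD, n = 4 and 6), and WT replicate 6 was the highest library. Nnat had a log2 fold change of -0.14 (SE 0.08, 95% interval -0.31 to 0.03, edgeR adjusted p = 0.532). It was -0.13 without MD1 replicate 4 and -0.09 without WT replicate 6. The log2 ratio of Nnat over Blcap differed by -0.010 (exact permutation test, p = 0.929, adjusted p over 5 ratios = 0.929), with 3.59 to 4.04 in MD1 and 3.59 to 3.95 in WT.

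Across the genes, MD1 replicate 4 lay furthest from the WT means. On the log2 CPM scale the median distance of the 10 genes from their WT means was 0.30 in MD1 replicate 4 and 0.08 to 0.11 in the other MD1 libraries, against 0.06 to 0.10 in the WT libraries. The same median over all tested genes was 0.42 in MD1 replicate 4 and 0.13 to 0.20 in the other MD1 libraries, against 0.09 to 0.12 in WT. In MD1 replicate 4, Igf2r lay 0.82 above its WT mean, Plagl1 0.61 above, Sgce 0.58 above and Peg10 0.75 below. Among all tested genes in that library, 87.7% were further down than Igf2r and 12.03% further down than Peg10. Without MD1 replicate 4, the log2 fold changes of 9 of the genes lay between -0.20 and 0.08, and that of Airn was 0.23.

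**Figure D4:**
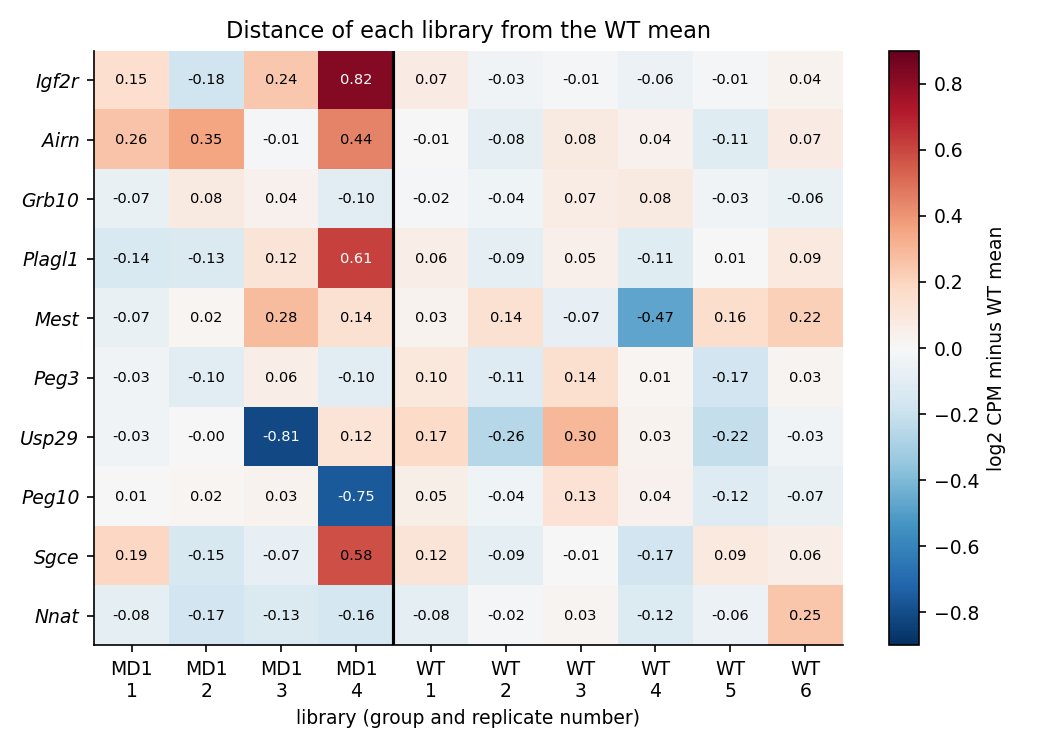
Log2 CPM of each gene less its WT mean (colour and printed value) in 4 MD1 libraries, left of the black line, and 6 WT libraries. The strongest colours stand in MD1 replicate 4, from -0.75 for Peg10 to 0.82 for Igf2r, and at Usp29 in MD1 replicate 3, while the other cells are paler.

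**Figure D5:**
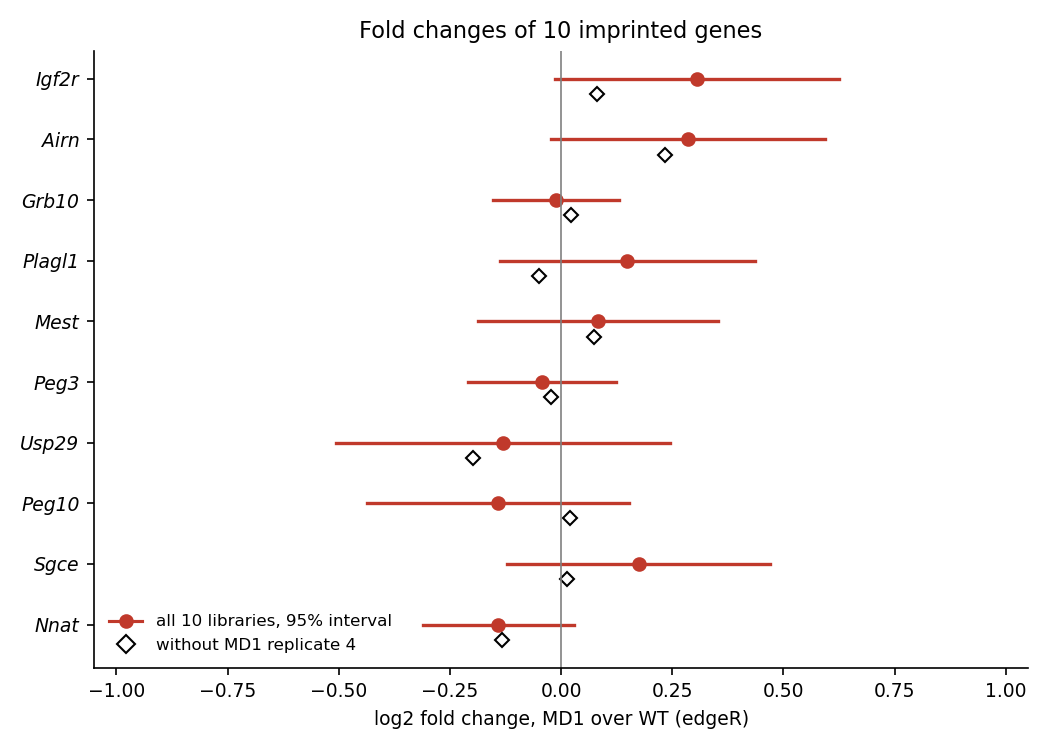
Log2 fold change of MD1 over WT (horizontal axis) of each gene from edgeR over all 10 libraries, with its 95% interval, and below it the value without MD1 replicate 4 (diamond). Every interval includes 0, and the values of Igf2r, Plagl1, Peg10 and Sgce are nearer to 0 without that library.

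EdgeR called no gene around the members, and DESeq2 called 1, Bet1, where it called 51 of all 15452 tested genes. Of 47 neighbours in the table for the 7 loci, 35 were tested and edgeR called 0. Of the 35, 3 had an unadjusted p under 0.05, where 9.79% of all tested genes did. There were 16 higher and 19 lower in MD1, with a median log2 fold change of -0.0166. Bet1, a SNARE gene of transport from the endoplasmic reticulum to the Golgi, lies on the Sgce side of Peg10 on chromosome 6. It was the only neighbour with all MD1 libraries above WT, at 43.7, 49.5, 46.9 and 56.4 CPM in MD1 replicates 1 to 4, against 30.9 to 40.7 CPM in WT. The log2 fold change was 0.47 (SE 0.10, edgeR adjusted p = 0.366, DESeq2 adjusted p = 0.0115). Without MD1 replicate 4 it was 0.40 (edgeR adjusted p = 0.415). Over 23 alternatives it stayed between 0.39 and 0.53, and Bet1 was called in 1 of them. Mrpl18, a mitochondrial ribosomal protein gene beside Igf2r, was the one neighbour with all MD1 libraries below WT, at 48.7 to 52.5 CPM in MD1, against 54.1 to 59.4 CPM in WT. The pair makes 2 of 35, where 2.05% of all tested genes had separate ranges. Tgm2, a transglutaminase gene near Nnat, had the highest log2 fold change of the neighbours, 0.93 (SE 0.44, edgeR adjusted p = 0.508), and stood at 53.7 CPM in MD1 replicate 4 and at 7.38 to 13.3 CPM in the other MD1 libraries, against 7.86 to 15.4 CPM in WT. Without MD1 replicate 4 its value was -0.05. Ddc, an amino acid decarboxylase gene beside Grb10, had the lowest, -0.57 (SE 0.26, edgeR adjusted p = 0.506), and -0.37 without MD1 replicate 4.

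Of 30 genes in the table that were listed as imprinted and lie outside the 7 loci, 25 were tested. Whether they are imprinted in the FNP was not measured. Of the 25, 15 were higher and 10 lower in MD1, and edgeR called 0. An unadjusted p under 0.05 was found for 3 of the 25, where 9.79% of all tested genes had one. Their median log2 fold change was 0.013. Dcn, which encodes the matrix proteoglycan decorin, had the highest, 2.17 (SE 0.60, edgeR adjusted p = 0.496), at 5.61, 2.29, 0.967 and 22.7 CPM in MD1 replicates 1 to 4, against 1.34 to 2.63 CPM in WT. MD1 replicate 4 was far above the rest, and without it the log2 fold change of Dcn was 0.87 (edgeR adjusted p = 0.839). Th, the tyrosine hydroxylase gene, which lies between Igf2 and Cdkn1c on chromosome 7, had the lowest, -0.31 (SE 0.44, edgeR adjusted p = 0.791), and 0.04 without MD1 replicate 4.

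Of 18 genes that maintain imprints or regulate them, 14 were tested and edgeR called 0. Of the 14, 3 had an unadjusted p under 0.05, where 9.79% of all tested genes did. There were 5 higher and 9 lower in MD1, with a median log2 fold change of -0.0233. Zfp57, whose hexamer is marked in the promoters, averaged 98.6 ± 34.2 CPM in MD1 and 80.2 ± 11.5 CPM in WT and had the highest value, 0.31 (SE 0.19), which was 0.11 without MD1 replicate 4. Dnmt3a, a de novo DNA methyltransferase gene, averaged 213 ± 60 CPM in MD1 and 257 ± 36 CPM in WT and had the lowest, -0.27 (SE 0.17), which was -0.09 without that library.

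A network of co-expressed imprinted genes, to which 7 of the members belong, had a median log2 fold change of 0.147 over its 20 genes, with 14 higher and 6 lower in MD1. An unadjusted p under 0.05 was found for 4 of the 20, where 9.79% of all tested genes had one. Without MD1 replicate 4 the median was 0.0385. Ndn, which encodes a MAGE-family protein and belongs to the Snrpn domain, was the only gene called, where edgeR called 0.0777% of all tested genes. Ndn averaged 175 ± 31 CPM in MD1 and 105 ± 10 CPM in WT, a log2 difference of 0.73 (SE 0.11, edgeR adjusted p = 0.0354). That call was kept in 9 of 23 alternatives and was lost without MD1 replicate 1 or 3 or any single WT library, while the log2 difference stayed between 0.64 and 0.80 in all 23, with unadjusted p of at most 0.000686. Since the study singled out the Snrpn cluster in these libraries, the call adds no independent support. The IGF pathway, in which Igf2r and Grb10 act, had 20 genes tested, 13 higher and 7 lower in MD1, and 0 called by edgeR. Of the 20, 5 had an unadjusted p under 0.05, where 9.79% of all tested genes did. Separate ranges were found for 1 of the 20, M6pr, where 2.05% of all tested genes had them. M6pr, a mannose-6-phosphate receptor gene, stood at 101 to 122 CPM in MD1, against 85.5 to 97.8 CPM in WT. Its log2 fold change was 0.25 (SE 0.07, edgeR adjusted p = 0.496). The pathway had a median of 0.133, which was 0.0232 without MD1 replicate 4. The highest value of the pathway was that of Igfbp2, a gene for an IGF binding protein, at 1.07 (SE 0.46, edgeR adjusted p = 0.502). Igfbp2 stood at 488, 284, 370.2 and 2081 CPM in MD1 replicates 1 to 4, against 283 to 552 CPM in WT. That value rested on MD1 replicate 4 and was -0.01 without it. The lowest value of the pathway was that of Akt1, a kinase gene, at -0.27 (SE 0.17), and -0.07 without MD1 replicate 4.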

How the data were processed

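The authors deposited whole-number read counts per gene, and a table of log2 RPKM values scaled by them for library size and transcript length. Their pipeline used Trim Galore 0.4.4 for trimming, HISAT2 2.0.5 for alignment to GRCm38.p6 and SeqMonk for quantification. The kit that the labels name does not mark strand and no source used here gives a strand setting for the counting, so antisense neighbours can share reads. Deposited columns of group averages were not used.

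Of 35591 rows, 27 had a symbol turned into a date, which was restored from the gene identifier, and 49 repeated an identifier, which left 35542 genes. Counts were tested in edgeR 4.0.16 (R 4.3.3) by quasi-likelihood after filterByExpr and TMM, MD1 against WT over all 10 libraries with no covariate, on 15452 autosomal genes, p-values being adjusted by Benjamini-Hochberg at a threshold of 0.05. The study excluded sex chromosomes too. Ratios within a locus are log2((count + 0.5)/(count + 0.5)), tested with an exact permutation test over all 210 assignments of libraries to groups, two-sided, and adjusted over 5 ratios; the smallest p it can give is 0.0048. Levels are CPM of the TMM-scaled library, and levels between genes were compared only in RPKM. The scripts were tested on simulated counts. Exon overlaps are from GENCODE M21 and promoter windows from RefSeq.

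The labels do not say that each library came from an embryo of its own. Libraries of different sex cannot share an embryo, but those of 1 sex may, so p-values reflect the spread between these libraries, which may be technical in part. All 45 pairs of libraries differed by more than sampling noise (chi-square per degree of freedom 3.95 to 154.83). The members and lists were chosen with earlier results of these data known. All 10 members are named. Other genes are named where they pass the threshold, overlap a member, have separate ranges, or have the highest or lowest fold change of a list. Alternatives were other normalizations (DESeq2 size factors, total counts), other tools (DESeq2 1.42.0, limma 3.58.1 on voom and on log2 RPKM, edgeR's exact test), other filters, sex label as a covariate, sex chromosomes kept, the replicate number as a block, and libraries left out.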

Additional observations from a re-analysis of the deposited data

Results flagged for a closer look

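Within-group outliers were looked for in 30 groups of 4 or 6 libraries (10 genes and 5 ratios, MD1 and WT), and 3 values were far from the rest of their group; chance flags about 1 in 20. Peg10 in MD1 replicate 4, at 542 CPM, was the lowest of the MD1 libraries, and its gap to the next library was 0.956 of the MD1 range. Nnat in WT replicate 6, at 954 CPM, was the highest of the WT libraries. The log2 ratio of Mest over Copg2 in MD1 replicate 3, at 1.34, was the highest of the MD1 libraries, and it lay within the WT range of 1.28 to 1.42.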

How the results depend on the processing

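No member passed the threshold in any of 23 alternatives; the lowest adjusted p was 0.256, for Igf2r without MD1 replicate 2. Of 230 pairs of a member and an alternative, 219 kept the sign. Unadjusted p fell under 0.05 for Airn with limma-voom (0.0421) and without MD1 replicate 3 (0.0232) and for Igf2r without MD1 replicate 2 (0.0051). In the same fits, in that order, it did so for 1699 of 15452, 2565 of 15714 and 2293 of 15715 tested genes. Leaving out both libraries labelled MD1 female turned the sign of Grb10 to 0.0645, Plagl1 to -0.0053, Peg10 to 0.0255, Sgce to -0.1105 and Peg10 over Sgce to 0.1324. Leaving out 1 library at a time gave log2 fold changes of -0.0451 to 0.0222 for Grb10, -0.0501 to 0.2344 for Plagl1, 0.0034 to 0.1351 for Mest, -0.1655 to -0.0877 for Nnat, -0.1977 to 0.0211 for Usp29 and -0.2006 to 0.0189 for Peg10, and log2 ratios of -0.1649 to 0.1402 for Airn over Igf2r, -0.2584 to 0.1052 for Usp29 over Peg3, -0.4724 to 0.0279 for Peg10 over Sgce and -0.1110 to 0.0418 for Nnat over Blcap.

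The number of autosomal genes called, 12, was 51 with DESeq2, 29 with edgeR's exact test, 4 with limma on log2 RPKM, 6 without both libraries labelled MD1 female and 4 to 13 without 1 library; the cause was not tested. Libraries of the same number did not deviate together (correlations -0.118 to 0.05). A low correlation over all genes cannot show whether they share more than a number. With the replicate block over libraries 1 to 4, edgeR called 0 genes (364 at an unadjusted p under 0.05), against 3 without the block in the same 8 libraries, a fit added after the data were seen; no member was called in either. Depth limits Airn most: 24 reads in MD1 replicate 3 leave its level uncertain by 42.4% either way.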
